A study of Mus musculus with 4 samples.

Results

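The nuclear-encoded genes of the mitochondrial respiratory chain were followed in the mouse mammary carcinoma line 4T07 (strain Balb/cfC3H). The members were the rows of the deposited table whose symbol starts with Nduf, Uqcr, Cox and a digit, or Atp5, together with Sdha, Sdhb, Sdhc and Sdhd. This rule, which uses no measured value, gave 101 of 24421 genes. By known membership 36 encode subunits of complex I, 4 of complex II, 8 of complex III, 19 of complex IV and 15 of complex V, and 19 encode assembly or supercomplex factors. Ndufa4, named after complex I, was placed in complex IV, where its protein is now known to sit.

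Polyadenylated RNA was sequenced from 2 libraries of control cells (genotype control) and 2 libraries of cells labelled Six2 Overexpression, all of the same line, collected 48 hours after plating with no treatment named. The read totals recovered from the values were 43110985 and 41881864 for the controls (replicates 1 and 2), and 49910629 and 81524250 for the Six2-labelled libraries. Read numbers of single genes are recovered in lowest terms and can therefore be understated. The labels name neither the vector, promoter or clone behind the Six2 cells nor separate cultures, so p-values describe only how far these 4 libraries vary, possibly for technical reasons. Six2 itself, the homeobox gene named in the labels, was listed at 0 in all libraries except Six2-labelled replicate 1, where 3 reads were recovered. The values therefore do not show the overexpression, and the groups are called by their labels. Of the 5 epithelial markers examined, the keratin gene Krt8 was at 607 to 1059 RPKM in the 4 libraries, while Epcam lay below 1 RPKM in every library. Krt18 was at 389 to 799.9 RPKM. Krt19 was at 8.76 and 4.26 RPKM in the controls and at 0.802 and 0.464 RPKM in the Six2-labelled libraries. Cdh1, the epithelial cadherin, was at 14.6 and 8.40 RPKM in the controls and at 0.186 and 0.103 RPKM in the Six2-labelled libraries. Of 2 mesenchymal markers, Vim was at 1300.0 to 1553 RPKM in the 4 libraries. Fn1 was at 667 and 407 RPKM in the controls and at 287 and 206 RPKM in the Six2-labelled libraries. The part of these marker differences in the results below was not tested. Of 5 leukocyte markers only Cd68 passed 1 RPKM (4.99 to 12.4 RPKM), with Ptprc at most at 0.00433 RPKM. Of 5 fibroblast markers only Pdgfra did (4.78 to 8.85 RPKM), with Lum listed at 0, and none of 4 endothelial markers exceeded 0.0905 RPKM. In bulk RNA, fewer cells of a type and less RNA per cell cannot be told apart.

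The respiratory chain sits in the inner mitochondrial membrane. Complexes I and II pass electrons from NADH and succinate to coenzyme Q, complex III passes them on to cytochrome c, and complex IV hands them to oxygen. The proton gradient built by complexes I, III and IV drives complex V, the ATP synthase. Most subunits are encoded in the nucleus, and a small core is encoded by mitochondrial DNA, whose genes were not analysed here. The promoters of many nuclear members are known to bind the factors NRF1, GABP (an ETS-family factor) and YY1.

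Promoter windows of 5 members are printed because these genes have the largest differences towards higher values in complexes III (Uqcrc1), IV (Cox5b) and V (Atp5f1) and among the assembly factors (Cox20), or the highest level (Atp5b). Each window runs from 250 bases before to 50 bases after the RefSeq start (build GRCm38.p6), 5′ to 3′ on the gene's strand. Capitals mark the NRF1 palindrome (GCGCA followed directly by its reverse complement), CCGGAAG (the ETS core) or AANATGGC (a YY1-type motif), searched on both strands; the letters of these motifs may overlap one another.
Cox5b, chr1:36691237-36691536, plus strand: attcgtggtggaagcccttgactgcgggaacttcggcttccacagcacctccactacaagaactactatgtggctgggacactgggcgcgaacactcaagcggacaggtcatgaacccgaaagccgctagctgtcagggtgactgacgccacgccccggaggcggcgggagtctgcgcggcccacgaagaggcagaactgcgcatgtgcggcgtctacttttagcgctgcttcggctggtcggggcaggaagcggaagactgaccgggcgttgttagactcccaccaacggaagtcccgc
Cox20, chr1:178318903-178319202, plus strand: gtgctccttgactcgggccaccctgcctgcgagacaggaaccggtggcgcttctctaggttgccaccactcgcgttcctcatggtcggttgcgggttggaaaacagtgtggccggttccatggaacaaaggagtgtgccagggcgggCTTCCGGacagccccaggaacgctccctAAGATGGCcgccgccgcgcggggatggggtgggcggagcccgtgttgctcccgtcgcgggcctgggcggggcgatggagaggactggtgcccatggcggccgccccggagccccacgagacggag
Uqcrc1, chr9:108936398-108936697, plus strand: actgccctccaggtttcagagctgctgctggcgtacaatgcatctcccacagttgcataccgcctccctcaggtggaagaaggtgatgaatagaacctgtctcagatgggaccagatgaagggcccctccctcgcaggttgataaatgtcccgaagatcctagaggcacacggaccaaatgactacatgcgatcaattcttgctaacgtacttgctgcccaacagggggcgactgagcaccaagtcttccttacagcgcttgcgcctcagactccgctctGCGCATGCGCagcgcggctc
Atp5b, chr10:128083057-128083356, plus strand: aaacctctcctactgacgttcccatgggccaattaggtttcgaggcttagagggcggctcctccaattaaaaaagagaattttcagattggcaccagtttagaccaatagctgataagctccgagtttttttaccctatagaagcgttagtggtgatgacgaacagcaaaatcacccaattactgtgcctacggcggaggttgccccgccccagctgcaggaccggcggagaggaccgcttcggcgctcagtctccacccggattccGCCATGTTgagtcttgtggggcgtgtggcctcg
Atp5f1 (Atp5pb in RefSeq), chr3:105959214-105959513, minus strand: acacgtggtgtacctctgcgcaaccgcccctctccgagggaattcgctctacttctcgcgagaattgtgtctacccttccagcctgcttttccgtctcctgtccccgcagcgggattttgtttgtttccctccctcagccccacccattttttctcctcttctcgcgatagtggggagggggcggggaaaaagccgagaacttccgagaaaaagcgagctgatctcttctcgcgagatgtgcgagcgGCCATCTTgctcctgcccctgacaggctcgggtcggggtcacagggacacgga
Uqcrc1 holds 1 NRF1 palindrome, Cox20 holds 1 ETS core and 1 YY1-type motif, and Atp5b and Atp5f1 each hold 1 YY1-type motif close to the start. The window of Cox5b holds none of these letters, which says nothing about the factors themselves.

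Such motifs were more frequent in the members' windows than in all RefSeq windows of the same length. Those 32851 windows belong to 27025 genes, taken whether or not they were expressed here, and no set matched for expression was compared. RefSeq windows were matched for 83 of the 101 members, giving 90 windows. The NRF1 palindrome was in 7.78% of them and in 0.971% of all 32851 windows. The ETS core was in 25.6% against 8.86%, and the YY1-type motif in 24.4% against 6.05%. The members' windows were also richer in G and C (median 58.8% against 52.7%), and the share of a motif moves with base composition, whose part was not tested. The NRF1 palindrome was in 9.09% of 44 windows of members higher in both Six2-labelled libraries and in 8.57% of 35 windows of members whose groups overlapped. For the ETS core these shares were 25% and 31.4%, and for the YY1-type motif 25% and 22.9%. The 8 windows of members lower in both Six2-labelled libraries gave 0%, 12.5% and 37.5% for the 3 motifs in the same order. A match is a description and not a binding site.

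Levels are given in RPKM, which divides reads by gene length and by library depth, so that levels of different genes can be compared. Of the 101 members, 94 reached 1 RPKM in at least 2 libraries and were tested, and their median over libraries was 83.8 RPKM, against 13.0 RPKM for all 10654 genes tested. The highest was Atp5b, the catalytic beta subunit of ATP synthase, at 529.6 and 566 RPKM in the controls and 759 and 728 RPKM in Six2-labelled cells. Next came Atp5a1 (mean of the 4 libraries 393 RPKM), Cox6b1 (377 RPKM) and Cox6a1 (347 RPKM). Neighbours in this order mostly overlapped between libraries: Atp5a1 ranged from 349 to 429 RPKM and Cox6b1 from 363 to 408 RPKM, whereas Atp5b stood above every other member in each library. Subunits were far more abundant than the factors that assemble them. The median subunit of complex V was at 216 RPKM, of complex IV at 227 RPKM, of complex III at 129 RPKM, of complex II at 101 RPKM and of complex I at 63.8 RPKM, while the median assembly factor was at 10.3 RPKM. The lowest tested subunit of complex I was Ndufs5 (2.39 to 4.76 RPKM), with 51 to 144 reads per library, named after its values were seen. How reads shared between genes were treated is not given, and its part in this low level was not tested. In all, the members took 0.92% and 0.912% of the reads in the control libraries and 1.07% and 1.03% in the Six2-labelled libraries.

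**Figure D1:**
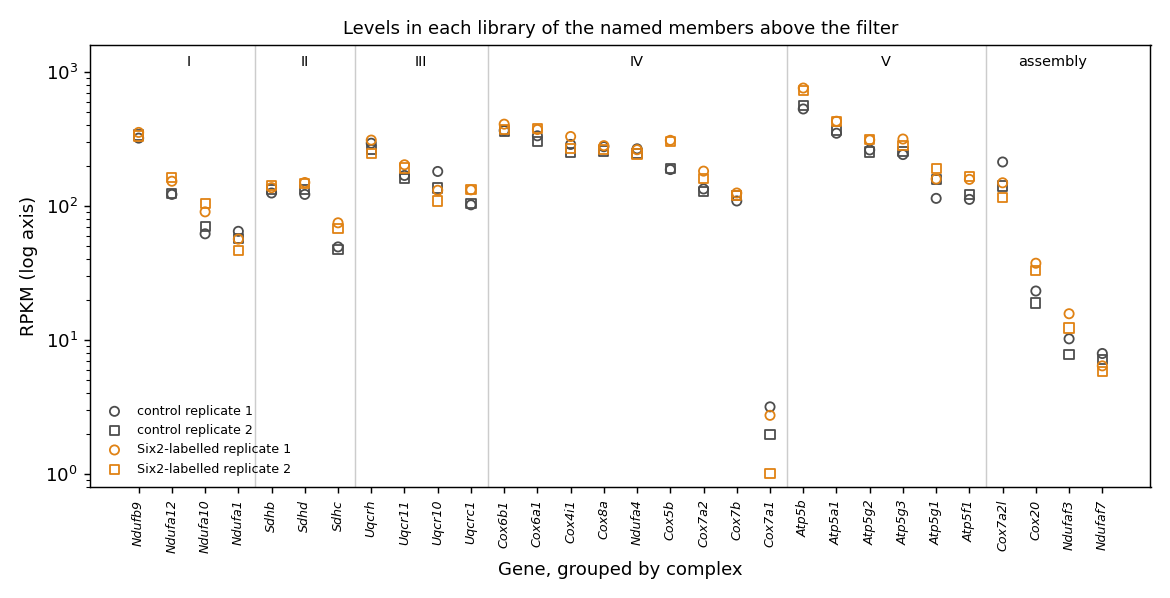
RPKM on a log axis of the named members above the filter, grouped by complex, with 1 point for each of the 4 libraries (grey, control; orange, Six2-labelled; circles, replicate 1; squares, replicate 2). Atp5b lies highest in all 4 libraries, Cox7a1 lies near 1 to 3 RPKM, and the 2 groups separate most clearly for Cox5b and Cox20.

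Between the groups, the respiratory chain genes leaned towards higher values in the Six2-labelled libraries, by small amounts. Differences are given as the Six2-labelled minus the control mean of log2(RPKM + 1). Of the 94 tested members, 65 lay above 0 and 29 below, that is 69.1% above 0 against 47.9% of all genes tested, and the median difference was 0.11 against -0.01. Both Six2-labelled libraries lay above both control libraries for 46 members (48.9%, against 21.9% of all tested genes), and below them for 8 (8.51%, against 25.5%). With limma-trend and Benjamini-Hochberg adjustment over all tested genes, 0 of the 94 passed at 0.05, where 0.113% of all genes did (0.0282% higher and 0.0845% lower). At an unadjusted p under 0.05 there were 19 members, all higher, which is 20.2% against 17% of all tested genes (7.36% higher and 9.66% lower). With voom on recovered reads 0 members passed as well, where 0 of all 10650 genes fitted did. An unadjusted voom p under 0.05 was found for 17 of the 94 members, where 1806 of all 10650 genes fitted (17%) had one. Only a model with the replicate number as a block called members, 40 higher and 10 lower, where it also called 20% of all tested genes higher and 23.5% lower; the labels do not say that the numbers pair libraries. Since the members share libraries and were tested together with all other genes, these counts describe the group and are no test of it.

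**Figure D2:**
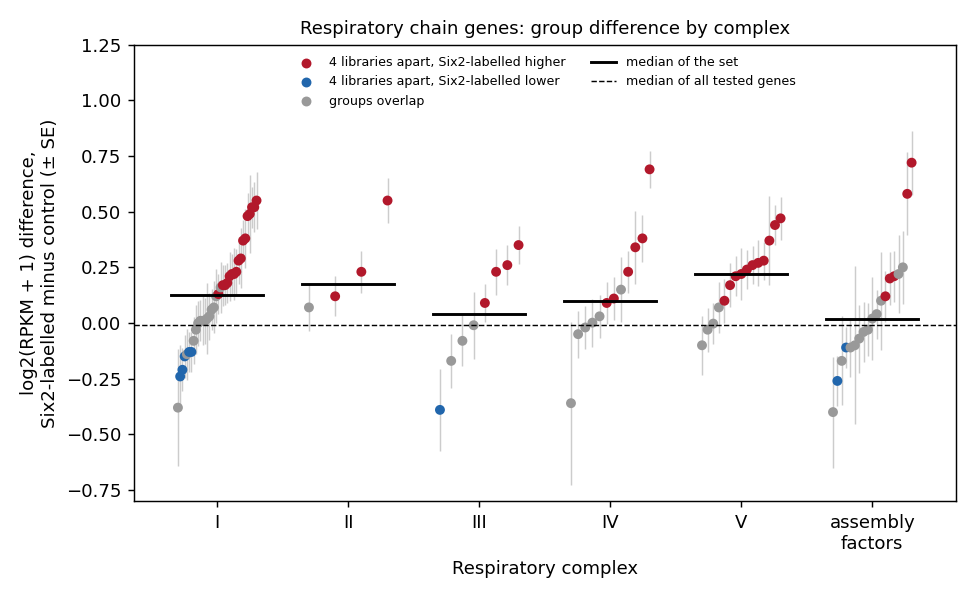
Difference in log2(RPKM + 1), Six2-labelled minus control, of each tested member (points, ± SE from limma-trend) by complex, with the set median (bar) and the median of all tested genes (dashed line, -0.01). Red and blue mark members whose 4 libraries lie apart by group; with all 4 libraries the median of complex V is 0.22 and that of the assembly factors 0.02, against 0.16 and 0.10 without control replicate 2.

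Complex I, the NADH dehydrogenase, had 36 members tested, of which 26 lay above 0 (median difference 0.12). The 4 libraries were apart for 17 higher subunits (47.2%, against 21.9% of all tested genes) and 5 lower subunits (13.9%, against 25.5%). Ndufa10, an accessory subunit on the matrix side of the membrane arm, was at 62.0 and 70.7 RPKM in the controls and 90.4 and 105 RPKM in Six2-labelled cells. The groups did not overlap, and the difference of 0.55 (SE 0.128) did not pass (limma-trend adjusted p = 0.175). Ndufb5, of the distal membrane arm, was at 41.4 and 44.2 RPKM against 61.8 and 62.2 RPKM, and Ndufs1, the large iron-sulphur subunit of the arm that takes electrons from NADH, at 28.8 and 32.8 RPKM against 42.9 and 46.0 RPKM. Both were named after their values were seen. All 3 genes stood clear of the control libraries in both Six2-labelled libraries.

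Among the 7 core subunits of complex I encoded in the nucleus, values went both ways. Ndufs1, Ndufs3 and Ndufs7 lay above 0 with all 4 libraries apart, and Ndufv2 and Ndufs8 lay below 0 with all 4 libraries apart. Ndufv1, which holds the flavin that accepts electrons from NADH, differed by -0.08 with overlapping groups. The distal membrane arm subunits encoded by Ndufb genes lay above 0 in 8 of 10 cases (median 0.14). The most abundant of them, Ndufb9, was at 321 and 339 RPKM in the controls and 354 and 333 RPKM in Six2-labelled cells, so its groups overlapped. Ndufa12, an accessory subunit of the peripheral arm, was at 122 and 124 RPKM against 153 and 164 RPKM (ratio 1.29, adjusted p = 0.183). The lowest difference with all libraries apart belonged to Ndufa1, a small membrane-arm subunit, at 64.7 and 57.1 RPKM against 56.6 and 46.7 RPKM (-0.24, SE 0.14), a difference that was -0.15 without control replicate 1, -0.37 without Six2-labelled replicate 1 and -0.10 without Six2-labelled replicate 2.

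Complex II, succinate dehydrogenase, links the citric acid cycle to the chain and is built of 4 nuclear-encoded proteins only. All 4 lay above 0, with a median difference of 0.18. Sdhc, a membrane anchor that carries the complex's haem with Sdhd, was at 49.5 and 47.6 RPKM in the controls and at 74.9 and 68.2 RPKM in Six2-labelled cells. Its ratio of means was 1.47 and its difference 0.55 (SE 0.099, limma-trend adjusted p = 0.141). The partner anchor Sdhd was at 122 and 132 RPKM against 149.7 and 148 RPKM, with the groups apart. Sdhb, the iron-sulphur subunit, was at 125 and 132 RPKM against 137 and 143 RPKM, also apart. Only Sdha, the flavoprotein that oxidises succinate, overlapped (69.6 and 63.3 RPKM against 73.1 and 66.2 RPKM). The 3 genes apart and higher make 75.0% of only 4, against 21.9% of all tested genes. Those apart and lower were 0, against 25.5%.

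Complex III, the cytochrome bc1 complex, was split over the genes of the symbol rule, with 4 of 8 members above 0 and a median of 0.04. The rule leaves out the complex III gene Cyc1, at 86.5 and 109 RPKM in the controls and 114 and 132 RPKM in Six2-labelled cells (difference 0.33, SE 0.159, groups apart). Uqcrc1, a core protein facing the matrix, was at 102 and 104 RPKM in the controls and at 132 and 132 RPKM in Six2-labelled cells (difference 0.35, SE 0.0848, adjusted p = 0.176). Its partner core protein gene Uqcrc2 was also apart but by little, at 76.5 and 75.9 RPKM against 81.5 and 80.6 RPKM. Uqcr11, a small membrane subunit, was at 169 and 161 RPKM against 203 and 192 RPKM, and Uqcr10, another small subunit, ran the other way at 181 and 136 RPKM against 131 and 109 RPKM. The difference of Uqcr10 was -0.39 (SE 0.184, adjusted p = 0.377), the lowest of the complex. Leaving out control replicate 1 gave -0.19, leaving out control replicate 2 gave -0.60, and leaving out Six2-labelled replicate 2 gave -0.26. Uqcrh, the hinge protein that helps dock cytochrome c, had the highest level of the complex and overlapping groups (294 and 263 RPKM against 310.3 and 246 RPKM). Its difference of -0.01 was 0.01 with relative log expression scaling, so it has no stable sign. The complex III median came to -0.0017 without control replicate 2, 0.0048 without Six2-labelled replicate 1 and 0.13 without Six2-labelled replicate 2.

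Complex IV, cytochrome c oxidase, held the member with the smallest p-value of the whole chain. Cox5b, a nuclear-encoded subunit on the matrix side, was at 187 and 190.4 RPKM in the controls and at 309 and 302 RPKM in Six2-labelled cells. These values rest on at least 4538 to 14031 reads per library, and the replicates of each group lay close together. Its ratio of means was 1.62 and its difference 0.69 (SE 0.0843, unadjusted p = 8.18e-04, limma-trend adjusted p = 0.0983). Cox7a2 was next, at 134 and 128 RPKM against 182 and 161 RPKM, with a difference of 0.38 (adjusted p = 0.204). Of the 12 members tested 9 lay above 0. Apart and higher were 6 of the 12, where 21.9% of all tested genes were. Apart and lower were 0, where 25.5% of all tested genes were. Cox6b1, the most abundant, was at 366 and 363 RPKM against 408 and 370.4 RPKM, and Cox6a1 at 334 and 304 RPKM against 372 and 377 RPKM, both apart. Cox4i1, which carries a regulatory matrix domain, had overlapping groups with means of 269 RPKM (SD 27.1, n = 2) and 299.7 RPKM (SD 42.9, n = 2). Cox5a was at 105 and 139.5 RPKM against 157 and 150.0 RPKM, apart, with control replicate 1 low. Cox7b was apart by under 2 RPKM (109 and 119 RPKM against 125 and 119.9 RPKM), and Cox8a (277 and 257 RPKM against 282 and 264 RPKM) and Ndufa4 (267 and 248 RPKM against 263 and 244 RPKM) overlapped. The median of complex IV, 0.10 with all libraries, was 0.01 without Six2-labelled replicate 1.

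Tissue-restricted isoforms of complex IV were nearly silent. Cox4i2, Cox6a2, Cox6b2, Cox7b2, Cox8b, Cox8c and Ndufa4l2 made up the 7 members below the filter, and they are forms known from lung, muscle or testis or, for Ndufa4l2, from hypoxic cells. For Cox6a2, the heart and skeletal muscle form, the libraries gave 3, 3, 3 and 4 reads, the controls first. Cox4i2, the lung form, had 13, 1, 5 and 6 reads in the same order, at most 0.144% of the summed RPKM of Cox4i1 and Cox4i2. Cox8b and Cox8c were listed at 0 in all 4 libraries. Counts of 3 reads or fewer were found for Cox6b2 (3, 1, 0 and 0), Cox7b2 (0, 1, 1 and 0) and Ndufa4l2 (1, 2, 0 and 1), where 3 reads over these genes correspond to 0.0382 to 0.132 RPKM, for counting error only. No fold is given for them. The exception was Cox7a1, the muscle form of subunit VIIa, at 3.17 and 1.96 RPKM in the controls and 2.74 and 1.01 RPKM in Six2-labelled cells. It held 2.31%, 1.51%, 1.48% and 0.622% of the Cox7a1 and Cox7a2 sum, and its groups overlapped. The difference of Cox7a1 was -0.36 (SE 0.366), and 0.09 without Six2-labelled replicate 2. Muscle markers were low as well: 1 of 6 was above the filter (Myh1, at most 1.89 RPKM), and Actc1 was listed at 0.

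Complex V, the ATP synthase, had 12 of 15 members above 0. Apart and higher were 11 (73.3%, against 21.9% of all tested genes), and apart and lower 0 (against 25.5%). The median difference of the complex was 0.22. This was the highest median of the 5 complexes with all libraries. Without control replicate 2 it was 0.16, below the 0.22 of complex II, and without Six2-labelled replicate 1 both were at 0.19. All 5 subunits of the catalytic F1 head lay above 0. Of these Atp5e overlapped, at 216 and 199 RPKM against 234 and 203 RPKM (difference 0.07, SE 0.115). For Atp5b, whose values are given above, the ratio of means was 1.36 and the difference 0.44 (SE 0.0913, limma-trend adjusted p = 0.156). Atp5a1, the alpha subunit, was at 349 and 366 RPKM against 429 and 427 RPKM, a ratio of 1.20. Atp5f1, the b subunit of the stalk that holds the head in place, was at 112 and 121 RPKM in the controls and at 158 and 166 RPKM in Six2-labelled cells, a difference of 0.47 (SE 0.0955, adjusted p = 0.155). In Atp5b, Atp5a1 and Atp5f1 the replicates of a group differed by less than the groups did. Not all stalk and membrane subunits shared this: Atp5h was at 238 and 221 RPKM against 234 and 224 RPKM, and Atp5j (112 and 101 RPKM against 109 and 90.7 RPKM) also overlapped.

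The c-ring, which turns as protons pass, is built from 1 mature protein that Atp5g1, Atp5g2 and Atp5g3 all encode. Their summed level was 618 and 665 RPKM in the controls and 786 and 785 RPKM in Six2-labelled cells. Atp5g2 was at 262 and 253 RPKM against 311 and 312 RPKM, Atp5g3 at 242 and 254 RPKM against 316 and 282 RPKM, and Atp5g1 at 114 and 158 RPKM against 159 and 190.4 RPKM. The groups lay apart for each gene, though for Atp5g1 by under 2 RPKM and with a shift between replicates (0.36) close to the group difference (0.37, but 0.14 without control replicate 1 and 0.61 without control replicate 2). The share of Atp5g1 in the sum was 18.4% and 23.8% in control cells and 20.3% and 24.3% in Six2-labelled cells, so it differed by replicate number more than by group. Reads common to these 3 related genes may have been split or dropped in counting.

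Of the 19 assembly and supercomplex factors, 10 lay above 0 with a median of 0.02. Apart and higher were 5 (26.3%, against 21.9% of all tested genes), and apart and lower 2 (10.5%, against 25.5%). The median rested on single libraries: leaving out control replicate 1 gave 0.0016 and control replicate 2 gave 0.10, and leaving out Six2-labelled replicate 1 gave 0.09 and replicate 2 gave 0.03. Cox20, which helps insert a mitochondrially encoded copper-binding subunit into complex IV, was at 23.2 and 18.9 RPKM in the controls and at 37.4 and 33.1 RPKM in Six2-labelled cells. Its difference of 0.72 (SE 0.144, adjusted p = 0.152) was the highest among all members. Ndufaf3, an early assembly factor of complex I, was at 10.2 and 7.81 RPKM against 15.7 and 12.3 RPKM (0.58, adjusted p = 0.245). In the other direction lay Ndufaf7, a methyltransferase needed for complex I assembly, at 7.93 and 7.20 RPKM against 6.41 and 5.85 RPKM. Cox7a2l, which joins complexes III and IV in supercomplexes, was at 213 and 141 RPKM against 149 and 116 RPKM. Its groups overlapped, control replicate 1 alone standing high, and its difference was -0.40 (SE 0.249). This came to -0.11 when control replicate 1 was left out, to -0.70 when control replicate 2 was, and to -0.22 when Six2-labelled replicate 2 was.

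The size of a member's difference went with the chromosome that carries it. Positions were taken from GENCODE M21 on GRCm38, which placed 93 of the tested members. All 7 tested members on chromosome 1 lay above 0, from 0.21 to 0.72, and they include Cox5b, Cox20, Sdhc, Ndufa10, Ndufs1 and Ndufb3, among them the highest of complexes I, II and IV and of the assembly factors. The 576 other tested genes of chromosome 1 had a median difference of 0.32. All 7 on chromosome 17 lay below 0, from -0.40 to -0.13, where the 520 other tested genes had a median of -0.21. On chromosome 3, Atp5f1, Ndufb5 and Ndufc1 lay between 0.47 and 0.52, beside a median of 0.21 for the other genes. Over the 93 members, the difference of a member and the median of the other tested genes of its chromosome were correlated at r = 0.73 (Spearman's rho 0.69). These points share the same 4 libraries, and members of 1 chromosome share 1 median, so the value is a description. What sets the chromosome medians apart was not tested.

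**Figure D3:**
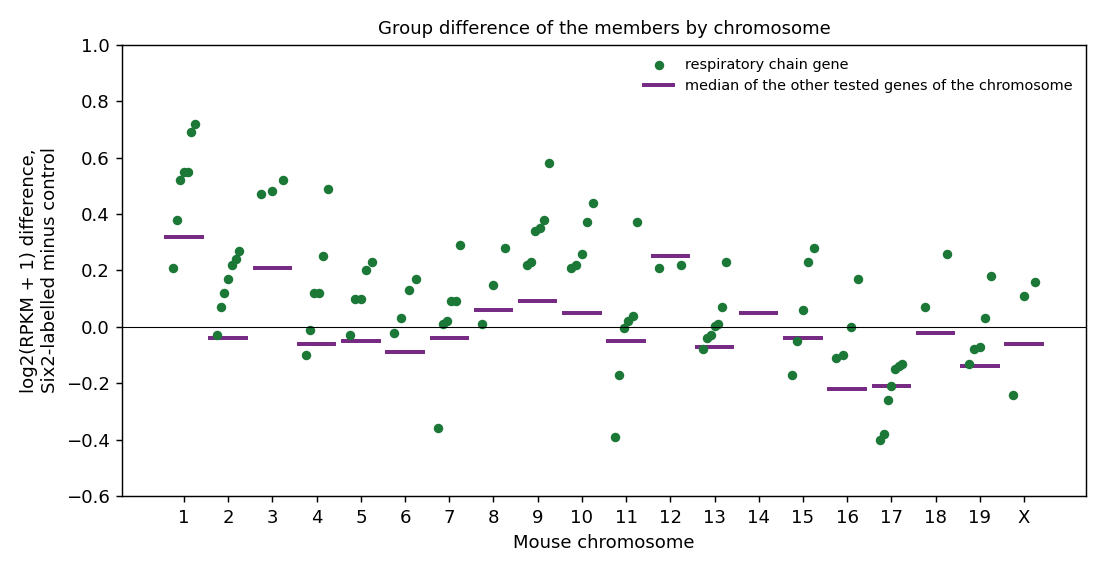
Difference in log2(RPKM + 1), Six2-labelled minus control, of each tested member (green points) by mouse chromosome, with the median of the other tested genes of that chromosome (purple bars). Members of chromosome 1 (0.21 to 0.72) and of chromosome 17 (-0.40 to -0.13) lie on opposite sides of 0, as do the bars of these chromosomes; no tested member lies on chromosome 14.

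The surroundings of single members differed. Cox5b lies at 36691449 to 36693681 on chromosome 1 (GRCm38), and of the 39 other tested genes within 5 Mb on either side 35 lay above 0 (median 0.40). Around Cox20, at 178319130 to 178322693 on chromosome 1, 41 of 44 lay above 0 (median 0.35), and around Sdhc, at 171127165 to 171150603, 41 of 50 (median 0.35). Around Ndufaf7, at 78937136 to 78948052 on chromosome 17, only 2 of 34 lay above 0 (median -0.25). Other members with large differences had surroundings near 0. The neighbours of Atp5g1 (0.37) had a median of -0.07, those of Ndufa12 (0.37) -0.05 and those of Ndufs5 (0.49) -0.01. The neighbours of Uqcr10 (-0.39) had a median of -0.03 and those of Cox7a1 (-0.36) -0.02. These windows were chosen after the chromosome pattern had been seen. Cox5b and Cox20 themselves lay above the medians of their surroundings, and with chromosome medians removed from all genes they differed by 0.37 and 0.40. Sdhc then differed by 0.22 and Atp5f1 by 0.25.

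The chain was also read relative to chromosome. After the median of the other tested genes of its chromosome was subtracted, 78 of the 93 placed members lay above 0 and 15 below, with a median of 0.13. Leaving out chromosomes 1, 3 and 12, whose medians were highest, 53 of 81 members lay above 0 with a median of 0.07. Without chromosomes 16 and 17 as well, 52 of 70 lay above 0 (median 0.10). Chromosomes differed in this, as seen after the values were known. On chromosomes 9 and 10, whose other genes had medians of 0.09 and 0.05, all 11 tested members lay above 0, among them Atp5b, Uqcrc1 and Ndufa12. Members were split on chromosome 11 (3 of 6 above 0), chromosome 13 (4 of 7), chromosome 15 (3 of 5) and chromosome 19 (2 of 5), whose other genes had medians of -0.05, -0.07, -0.04 and -0.14. Most lay above 0 on chromosomes 2 (6 of 7), 5 (4 of 5), 6 (3 of 4) and 7 (5 of 6). The other genes there had medians of -0.04, -0.05, -0.09 and -0.04. So did most on chromosomes 4 (4 of 6), 18 (2 of 2) and X (2 of 3), beside medians of -0.06, -0.02 and -0.06.

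Much of the spread within groups went with the replicate number in the labels. Among the 94 tested members the difference between replicates 2 and 1 in control cells correlated with that in Six2-labelled cells at r = 0.83, and at 0.82 over all 10654 tested genes. Ndufaf4, a complex I assembly factor, shifted most on the log2(RPKM + 1) scale, with replicate 2 above replicate 1 by 0.69 in the controls and by 0.72 in the Six2-labelled libraries. Ndufv3, an accessory subunit of complex I, was at 56.0 and 38.6 RPKM against 42.6 and 29.6 RPKM, low in replicate 2 of both groups. For 39 of the 94 members the shift with replicate number was larger than the group difference (41.5%, against 50.4% of all tested genes). Within replicate numbers, 56 members were above 0 in both (where 39.3% of all tested genes were) and 23 below 0 in both (where 43.7% were). The median difference of the members was 0.14 between libraries numbered 1 and 0.10 between libraries numbered 2. What the number stands for is not given in the sources used here.

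**Figure D4:**
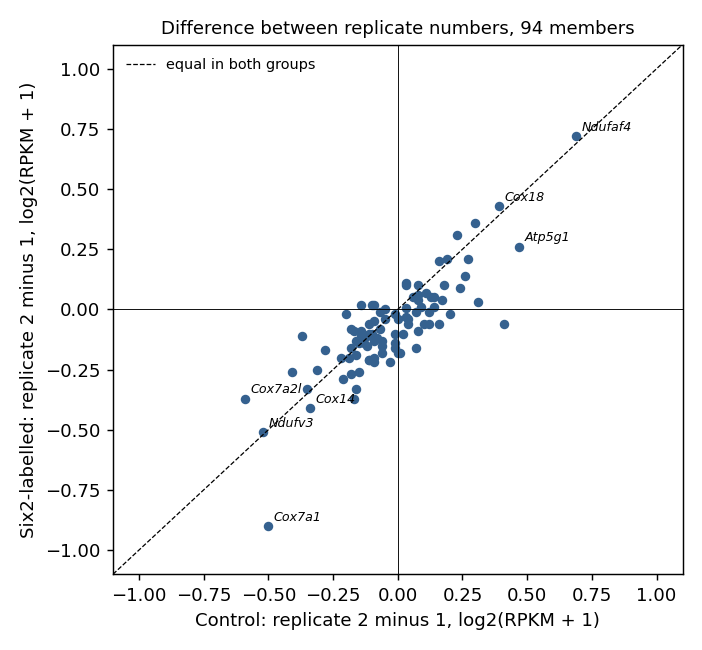
Replicate 2 minus replicate 1 in log2(RPKM + 1) for each of the 94 tested members, control libraries on the x axis and Six2-labelled libraries on the y axis, with the line of equal differences dashed. The points lie along the line (r = 0.83), with Ndufaf4 at the upper right and Cox7a1 at the lower left.

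Other genes of mitochondrial energy metabolism were read for comparison, from lists chosen with earlier results of these data known. Of their tested members 0 passed limma-trend or voom after adjustment over all genes, where 0.113% and 0% of all genes did. Of 18 genes of the citric acid cycle and pyruvate dehydrogenase, 14 lay above 0 (median 0.14). An unadjusted limma-trend p under 0.05 was found for 4, all higher. This is 22.2%, against 17% of all tested genes (7.36% higher and 9.66% lower). Fh1, fumarase, was at 40.0 and 44.7 RPKM against 60.7 and 67.7 RPKM, and it too lies on chromosome 1. Mdh2, the most abundant of this list, was at 289.9 and 327 RPKM against 367 and 369.9 RPKM. Among 77 mitochondrial ribosomal protein genes 42 lay above 0 (median 0.05), led by Mrpl30 of chromosome 1 at 49.0 and 52.8 RPKM against 74.3 and 82.9 RPKM. Mrps6, their most abundant, overlapped (212 and 205 RPKM against 269.8 and 184 RPKM). The 76 cytosolic ribosomal protein genes were balanced, with 39 above 0 and a median of 0.01. Rplp1 was at 2415 and 2579 RPKM against 2721 and 3070.5 RPKM, and Rpl31, also of chromosome 1, at 443 and 467 RPKM against 577 and 643 RPKM.

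Of 15 tested regulators of mitochondrial gene expression, 11 lay above 0 (median 0.10). Apart and higher were 5 (33.3%, against 21.9% of all tested genes), and apart and lower 2 (13.3%, against 25.5%). At an unadjusted limma-trend p under 0.05 there were 0 higher and 1 lower (6.67% in all, against 17% of all tested genes). That gene was Gabpa, which encodes the DNA-binding subunit of GABP, at 18.7 and 17.6 RPKM against 14.9 and 14.5 RPKM (-0.29, adjusted p = 0.259), on chromosome 16, whose other tested genes had a median of -0.22. Yy1, the most abundant regulator, was at 25.6 and 28.8 RPKM against 30.2 and 33.1 RPKM. Of 33 further assembly factors 16 lay above 0 (median -0.0028). Apart and higher were 8 (24.2%, against 21.9% of all tested genes), and apart and lower 7 (21.2%, against 25.5%). Higd2a, a factor of complex IV and its supercomplexes, was at 80.8 and 59.3 RPKM against 56.2 and 40.2 RPKM, and Usmg5, a small ATP synthase protein, at 157 and 147 RPKM against 167 and 159.6 RPKM. Of 7 tested genes of cytochrome c and complex III outside the symbol rule 4 lay above 0 (median 0.05), and the most abundant, the complex III assembly gene Uqcc2 of chromosome 17, was at 267 and 252 RPKM against 216 and 189 RPKM. Coenzyme Q synthesis had 7 of 12 tested genes above 0 (median 0.03). In that list Coq4 was at 8.08 and 9.67 RPKM against 10.7 and 12.4 RPKM, and Coq5 was at 16.1 and 19.9 RPKM against 17.6 and 20.3 RPKM.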

How the data were processed

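The authors deposited 1 table of RPKM values for 4 libraries, made per the submitters' processing notes with HTSeq 0.8.0, TopHat2 2.1.1 and Bowtie2 among other tools, whose roles are not stated, naming the builds GRCm38 and mm10. The sources used here do not give the annotation, gene lengths, strand setting or treatment of shared reads, so overlapping genes and near-identical copies are uncertain. In GENCODE M21, 14 of 100 placed members overlap another gene on the same strand. Per the labels' protocols libraries were made with a stranded kit for polyadenylated RNA. RPKM values are whole multiples of the value of 1 read. Whole reads came out, within 0.001, for 14459 of 14459 genes seen in at least 3 libraries, which fixed the read totals; the shortest length that gives whole reads was taken, so a gene's reads may be understated.

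limma 3.58.1 (R 4.3.3) fitted log2(RPKM + 1) on group with a variance trend over genes at 1 RPKM or more in 2 libraries, two-sided, with Benjamini-Hochberg adjustment over all 10654. The pseudocount understates changes of low genes. The fit was tested on simulated data. Alternatives were a pseudocount of 0.1, no filter, relative log expression scaling, voom on recovered reads, chromosome medians removed (chromosomes of 100 or more tested genes), each library left out and the replicate number as a block. Members and lists were chosen with earlier results of these data known. Named genes were the 2 highest by mean per complex, the largest difference in each direction with all libraries apart, the isoform families, the 2 largest assembly factors each way, and 2 genes per other list by level and size of difference. Others are said to be named after their values were seen or stand for their role.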

Additional observations from a re-analysis of the deposited data

How the results depend on the processing

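With the replicate number as a block, limma-trend called 50 of the 94 members, 40 higher and 10 lower, where 20% and 23.5% of all tested genes were called higher and lower; 0 were called without it and under every other alternative, including each library left out. There are only 2 pairs and the labels do not say that a number marks a shared culture or day, so no call rests on the block; same-numbered libraries deviated together (r = 0.82 over all tested genes). The median difference of the members, 0.11, was 0.13 with relative log expression scaling and 0.13 with chromosome medians removed, and 0.09 to 0.14 with a library left out. Leaving out a library gave medians of 0.15 to 0.22 for complex II, -0.0017 to 0.13 for complex III, 0.01 to 0.15 for complex IV, 0.16 to 0.25 for complex V and 0.0016 to 0.10 for the assembly factors. Members above 0 numbered 59 to 77 over all alternatives, against 65. Of the 30 named members tested, those that changed sign lay near 0 or at low levels. Uqcrh was at 0.01 with relative log expression scaling, 0.05 with chromosome medians removed and -0.18 to 0.16 with a library left out. Ndufa4 was at 0.06 with chromosome medians removed and -0.08 to 0.03 with a library left out. With a library left out Cox8a ran from -0.02 to 0.08 and Cox7a1 from -0.81 to 0.09. The cause was not tested.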
